A study of Mus musculus with 6 samples.

Results

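CD300 receptors are a family of immunoglobulin-like proteins on the surface of myeloid cells, and 5 of them were followed in mouse lung macrophages after bleomycin: Cd300a, Cd300lf, Cd300lb, Cd300ld and Cd300e. They were taken by name, as the rows whose Ensembl identifier carries these symbols, and make up 5 of the 22962 genes in the table. They had been picked with their difference between the groups already known, so that difference is described here and not tested. RNA sequencing was done on C57BL/6 alveolar macrophages, the phagocytes of the air spaces, washed out of the lung 2 weeks after saline or bleomycin was put into the trachea. Bleomycin is a DNA-breaking drug that scars the mouse lung. Each group had 3 libraries, numbered 1 to 3 for saline, and 1, 2 and 5 for bleomycin, with 27654799 to 37147983 recovered reads per library. The labels name no other allele, agent, age or batch, and do not say whether separate mice gave the libraries. The cells were selected by sticking to a culture plate, so any adherent lavage cell could be included.

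CD300 receptors recognise lipids of cell membranes, such as phosphatidylserine on dying cells, ceramide and sphingomyelin, and tune uptake and activation in macrophages, monocytes, neutrophils and mast cells. Some carry inhibitory tyrosine motifs in a long cytoplasmic tail and recruit the phosphatases SHP-1 and SHP-2. Others have a short tail and signal through the adaptors DAP12, encoded by Tyrobp, or the Fc receptor gamma chain, encoded by Fcer1g. Of the 5, Cd300a and Cd300lf (CD300f) are of the inhibitory kind, and Cd300lb (CD300b), Cd300ld and Cd300e are of the activating kind.

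All 5 genes lie in 1 cluster of 244 kb on chromosome 11 (GRCm38, 114890041 to 115133992), in which 11 CD300 genes are annotated. Cd300a stands at 1 end on the plus strand, and the others follow on the minus strand in the order Cd300lb, Cd300ld, Cd300e and Cd300lf. Cd300lf sits inside the span of Rab37, a gene on the opposite strand, but shares no exon bases with it, and none of the 5 shares exon bases with another annotated gene. Sequence shared within the family is small. Of the 50-base windows in their annotated transcripts, 3.45% of those of Cd300a, 2.44% of those of Cd300lf and 3.89% of those of Cd300ld occur in transcripts of other genes, mostly other CD300 genes, and 0% of those of Cd300lb and Cd300e do. Read length is not given in the sources used here, so the reads affected cannot be counted.

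The bases just upstream of 4 of the genes are shown because the levels of 3 of them (Cd300a, Cd300lb and Cd300e) did not overlap between the groups, and because Cd300a and Cd300lf carry the same short element near their start. The sequences are from RefSeq (GRCm38.p6), read 5′ to 3′ on the gene's strand, and end where the first annotated exon begins. They cover chr11:114889791-114890040 (plus strand) for Cd300a, chr11:115133993-115134242 (minus) for Cd300lf, chr11:114934387-114934621 (minus) for Cd300lb and chr11:115062178-115062289 (minus) for Cd300e. Capitals mark GAGGAA or its reverse complement, a core recognised by PU.1 and other ETS factors, which are known regulators of myeloid genes.
Cd300a: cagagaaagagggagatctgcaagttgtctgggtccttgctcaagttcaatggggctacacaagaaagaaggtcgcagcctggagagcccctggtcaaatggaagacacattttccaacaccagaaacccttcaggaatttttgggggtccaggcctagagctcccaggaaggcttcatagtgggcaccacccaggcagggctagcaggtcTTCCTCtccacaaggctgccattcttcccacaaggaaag
Cd300lf: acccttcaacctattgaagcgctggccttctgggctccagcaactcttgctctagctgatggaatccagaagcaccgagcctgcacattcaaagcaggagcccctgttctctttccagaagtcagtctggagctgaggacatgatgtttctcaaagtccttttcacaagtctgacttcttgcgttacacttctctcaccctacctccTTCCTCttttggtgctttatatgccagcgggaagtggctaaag
Cd300lb: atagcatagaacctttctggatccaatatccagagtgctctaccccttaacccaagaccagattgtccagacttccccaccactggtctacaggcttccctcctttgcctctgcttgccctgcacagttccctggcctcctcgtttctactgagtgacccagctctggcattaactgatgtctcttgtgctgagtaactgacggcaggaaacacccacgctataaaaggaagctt
Cd300e: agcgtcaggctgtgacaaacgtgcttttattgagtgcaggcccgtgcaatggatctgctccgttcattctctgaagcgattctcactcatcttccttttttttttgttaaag
In the 250 bases before the RefSeq start, searched on both strands, this core occurred in Cd300a, Cd300lf and Cd300ld, beginning 39, 43 and 143 bases upstream in that order, and not in Cd300lb or Cd300e. Of the 250 bases searched, 138 for Cd300e, 36 for Cd300ld and 15 for Cd300lb lie within the gene's own annotated exons. The window of Cd300e is thus mostly exon, and those bases are not in the sequences shown. The ETS core was present in 23.3% of 32851 mouse promoter windows of the same length. The core TGTGGT, read by RUNX factors, and the AP-1 element TGANTCA were in none of the 5 windows, against 14.0% and 6.75% of all windows, and no match to one motif overlapped a match to another. Of the 2 receptors that were higher after bleomycin, Cd300a has the ETS core in this window and Cd300lb does not.

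Cd300a, an inhibitory receptor for phosphatidylserine and phosphatidylethanolamine, was more abundant after bleomycin. Its normalized read count (reads divided by the size factor of the library) was 943, 1111 and 1315 for saline, in the order of the replicate numbers used throughout. For bleomycin it was 3025, 3409 and 3315. The groups did not overlap, and the bleomycin libraries were close together, with a mean of 3250 ± 201 (SD, n = 3) against 1123 ± 186 in saline. The log2 fold change of bleomycin over saline, on the log2(value + 1) scale, was 1.54 ± 0.14 (SE), or 2.91-fold. It ranged from 1.42 to 1.66 when each library was left out in turn. In a bulk library a change in the level per cell and a change in the number of cells that carry a transcript cannot be told apart.

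Cd300lf, the other inhibitory receptor and the one that binds ceramide and sphingomyelin, was the most abundant of the 5 and differed least between the groups. Its counts were 10369, 8715 and 8255 in saline, against 11079.5, 9799 and 11371 after bleomycin. The groups overlapped, since saline replicate 1 exceeded bleomycin replicate 2. The log2 fold change was 0.24 ± 0.12, and lay between 0.17 and 0.34 with each library left out.

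Cd300lb, an activating receptor that signals through DAP12 and also binds phosphatidylserine, was higher in every bleomycin library than in any saline library. Saline gave 431, 554 and 577 normalized counts, and bleomycin gave 946, 1779 and 1487. Bleomycin replicate 1 was well below the other 2 bleomycin libraries, yet above the highest saline library. The means were 521 ± 78.2 and 1404 ± 423 (SD, n = 3), a log2 fold change of 1.39 ± 0.23 or 2.62-fold, with values from 1.2 (without bleomycin replicate 2) to 1.65 (without bleomycin replicate 1).

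Cd300ld, an activating receptor that pairs with the Fc receptor gamma chain, gave an uneven picture. Saline libraries held 1349, 1297 and 1804 normalized counts of it, and bleomycin libraries 1365, 2540.3 and 2170.4. Bleomycin replicate 1 lay within the saline range and the other 2 bleomycin libraries lay above it, so the groups overlapped. The log2 fold change of 0.42 ± 0.23 depended on single libraries: it was 0.68 ± 0.17 without bleomycin replicate 1 and 0.23 ± 0.24 without bleomycin replicate 2.

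Cd300e, an activating receptor known in humans as a marker of mature monocytes, went the other way. The normalized counts were 359, 413 and 461 for saline against 81.7, 112 and 76.7 for bleomycin. These rest on 366, 380 and 435 reads and on 91, 102 and 89 reads. Every bleomycin library was below every saline library, with means of 411 ± 51.2 and 90.2 ± 19.1 (SD, n = 3). The log2 fold change was -2.19 ± 0.21 and stayed between -2.35 and -2.08 with each library left out. Among the 5 receptors Cd300e was the only one that was lower after bleomycin in all of the settings tried.

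**Figure D1:**
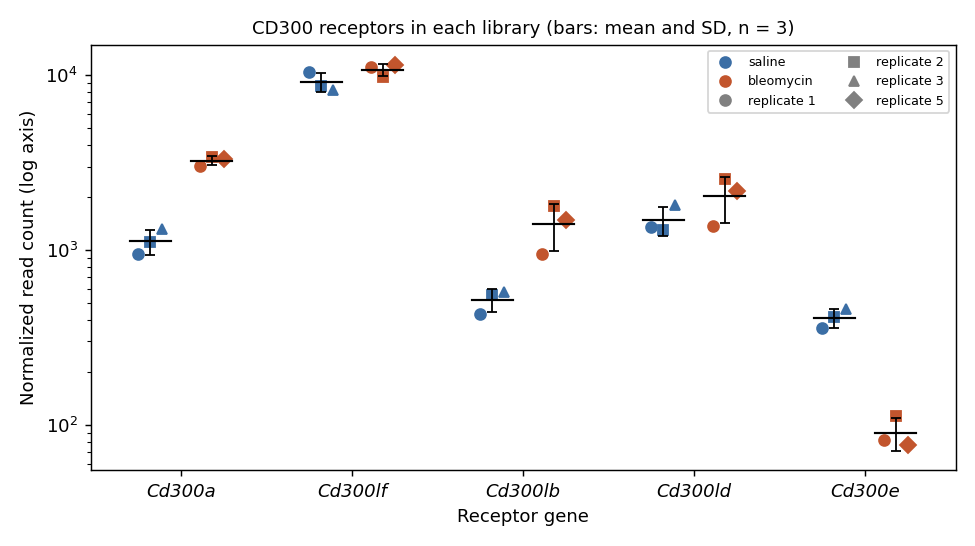
Normalized read count (log axis) of each CD300 receptor in each library, blue for saline and red for bleomycin, with symbols for replicate numbers and bars for the mean and SD (n = 3). Cd300a and Cd300lb sit higher and Cd300e lower in all 3 bleomycin libraries, while the groups of Cd300lf and Cd300ld overlap.

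Of the 5 receptors, 2 were past limma's threshold (adjusted p under 0.05) as higher and 1 as lower, where 9.76% and 3.9% of the 13512 genes tested were (13.7% in all). The groups did not overlap for 3 of the 5, and for 30.8% of all genes tested, 17.2% with bleomycin above and 13.6% with bleomycin below. Because the receptors were chosen on this contrast, nothing is read from those counts. Of all calls 71.5% were rises, or 59.7% with quantile normalization, which moved the median gene from -0.01 to -0.10 on the log2 scale. Under it the receptors had 1.51 (Cd300a), 0.28 (Cd300lf), 1.35 (Cd300lb), 0.41 (Cd300ld) and -2.40 (Cd300e).

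Levels of different receptors were compared per kilobase of merged exons. In saline the order was Cd300lf (1770 ± 216 normalized counts per kb), Cd300ld (561 ± 105), Cd300a (237 ± 39.3), Cd300e (197 ± 24.5) and Cd300lb (179 ± 26.8). The last 3 overlapped with their neighbours in the order, although Cd300a exceeded Cd300e and Cd300e exceeded Cd300lb within each library. After bleomycin the order was Cd300lf (2088 ± 162), Cd300ld (766 ± 227), Cd300a (686 ± 42.3), Cd300lb (481 ± 145) and Cd300e (43.2 ± 9.16). Cd300ld and Cd300a overlapped there, with Cd300a the higher of the pair in bleomycin replicate 1, and Cd300e was below all the others in every bleomycin library. By level per kb Cd300lf stood above 93.5% of tested genes in saline and 94.8% after bleomycin, whereas Cd300e went from above 60.5% to above 29.7%.

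The make-up of the set followed from these levels. Cd300lf made up 60.1 ± 6.21% of the summed level per kb in saline and 51.7 ± 6.91% after bleomycin (SD, n = 3). Cd300a went from 8.07 ± 1.41% to 16.9 ± 0.516%, Cd300lb from 6.09 ± 1.07% to 11.7 ± 2.77%, and Cd300e from 6.7 ± 0.93% to 1.06 ± 0.202%, each without overlap, while Cd300ld held 19.0 ± 3.34% and 18.6 ± 4.3%. The sum of the 5 was 2805 to 3043 counts per kb in saline and 3670 to 4275 after bleomycin. Within the 5, the summed inhibitory receptors were 1.71 to 2.67 times the summed activating receptors in saline and 1.61 to 3.17 times after bleomycin, which overlap. These sums leave out Cd300c2, an activating receptor outside the 5, so they do not give the balance of the whole family. Cd300c2 alone exceeded the sum of the 5, at 5412 ± 927 per kb in saline and 6784.5 ± 350.2 after bleomycin. Of the 5, Cd300a and Cd300lb, the receptors with no overlap and higher bleomycin values, are 1 of each kind.

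**Figure D2:**
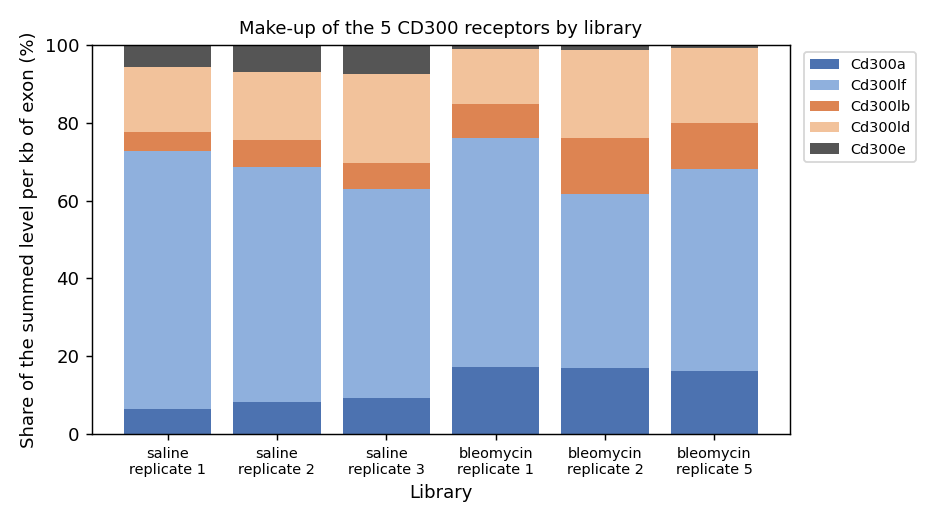
Share (%) of each receptor in the summed level per kb of exon of the 5 receptors, 1 bar per library. Cd300lf is the largest share in every library, Cd300a is 16.4 to 17.4% in the bleomycin bars against 6.54 to 9.31% in the saline bars, and Cd300e shrinks to a thin band after bleomycin.

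Ratios between receptors within a library do not depend on its size factor. Cd300a per kb was 1.16, 1.19 and 1.26 times Cd300e in the saline libraries and 16.3, 13.4 and 19.0 times in the bleomycin libraries. The ratio of Cd300lb to Cd300e went from 0.861 to 0.961 in saline to 8.28 to 13.9 after bleomycin. Cd300ld per kb was 3.45, 2.58 and 3.45 times Cd300lb in saline and 1.59, 1.57 and 1.61 times in the bleomycin libraries. Cd300ld and Cd300lb thus kept nearly the same ratio in the 3 bleomycin libraries, although both were lowest in bleomycin replicate 1 and highest in replicate 2. On the log2 scale both were 0.52 below their group mean in bleomycin replicate 1, whereas Cd300a was 0.10 below its own. Of the pairs compared, Cd300ld and Cd300lb had the ratio that varied least after bleomycin. Cd300a was 1.18 to 1.97 times Cd300lb there, and Cd300lf was 1.98 to 4.17 times Cd300ld.

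**Figure D3:**
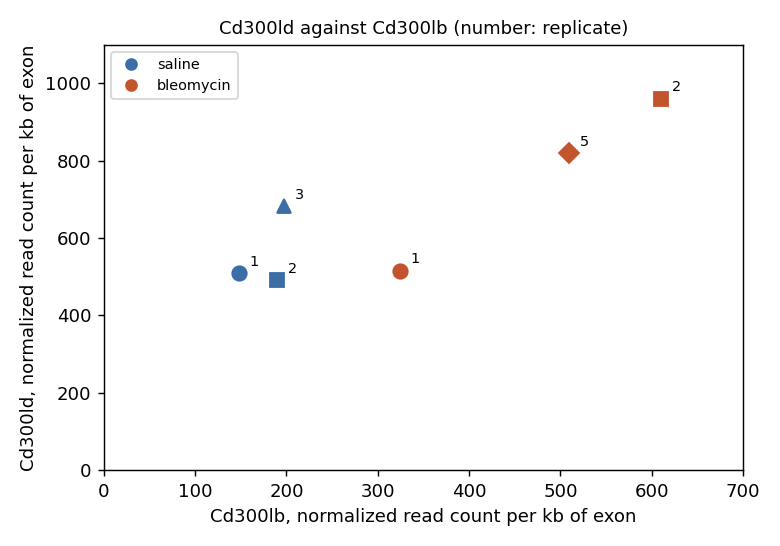
Cd300ld against Cd300lb, both as normalized read count per kb of exon, 1 point per library (blue saline, red bleomycin, number for the replicate). The bleomycin points lie along 1 line through the origin, with ratios of 1.57 to 1.61, and the saline points lie above that line, with ratios of 2.58 to 3.45.

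Of the other CD300 genes, 4 are in the table. Cd300c2, which encodes an activating receptor, was more abundant per kb than any of the 5, at 5412 ± 927 in saline and 6784.5 ± 350.2 after bleomycin. Its counts were 6128, 6313 and 8260.3 in saline and 9144, 8533 and 8274 after bleomycin, which just fail to overlap, with a log2 fold change of 0.34 ± 0.14 that did not pass (limma adjusted p = 0.156). Cd300c was low, at 59.5 ± 23.1 and 69.0 ± 15.4 (adjusted p = 0.708). Cd300lg, elsewhere on chromosome 11 and known from endothelium, had values of 513, 155 and 256 in saline and 225, 233 and 245 after bleomycin (adjusted p = 0.781). Cd300ld3 was below the test filter, at 1 read in all saline libraries together and 16 in all bleomycin libraries.

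Of 10 tested genes of other kinds inside the cluster or within 200 kb of it, 0 rose and 1 fell by limma, where 13.7% of all tested genes were called, so the count is close to the background. That gene was Rab37, a small GTPase of secretory vesicles, which went from 72.6 ± 12.7 to 35.3 ± 5.70 (log2 -1.02 ± 0.28, adjusted p = 0.0435). Its span holds Cd300lf, which shares no exon bases with it. Because the strand setting of the counting is not given, unspliced reads of 1 gene that fall on exons of the other cannot be told apart. Within the cluster Cd300e (-2.19) lay between CD300 genes with log2 fold changes above 0, as Cd300c2 (0.34) and Cd300lf (0.24) were its nearest tested relatives on either side.

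**Figure D4:**
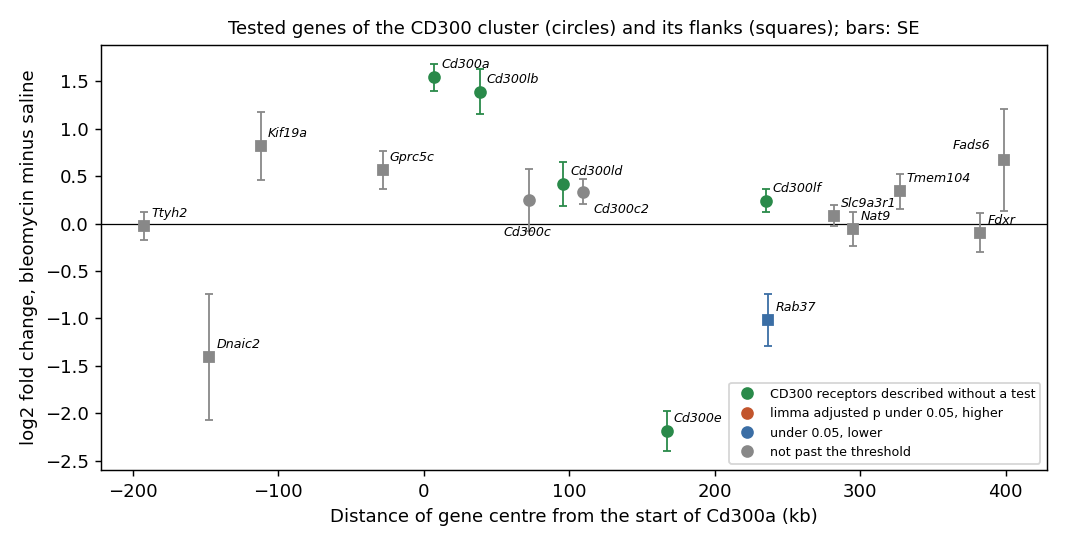
Log2 fold change (bleomycin minus saline, bars SE) of the tested genes of the CD300 cluster (circles) and its flanks (squares) against distance in kb from the start of Cd300a. The 5 receptors are green; Cd300a and Cd300lb at 1 end have the highest values and Cd300e has the lowest, at -2.19.

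Of 15 genes of the activating signalling pathway (adaptors, Src and Syk kinases and their substrates), 0 passed limma's threshold in either direction, where 13.7% of all tested genes did, with 2 at an unadjusted p under 0.05 and 0 by edgeR or DESeq2. Their median log2 fold change was -0.13, and that of all tested genes was -0.01. Tyrobp, which encodes DAP12, had 25822 ± 4473 in saline and 30835 ± 2988 after bleomycin (log2 0.27 ± 0.15, adjusted p = 0.324). Fcer1g had 36028 ± 4723 and 40136 ± 4345 (log2 0.16 ± 0.14, adjusted p = 0.569). Among the members with the smallest p were Lcp2, the adaptor SLP-76 (log2 -0.39 ± 0.14, adjusted p = 0.121), Btk (log2 -0.22 ± 0.10, adjusted p = 0.222) and Pik3r1, a phosphoinositide 3-kinase subunit (log2 0.30 ± 0.15, adjusted p = 0.258). Lcp2 passed without saline replicate 1 (adjusted p = 0.0207, with 0.0207 to 0.749 over all settings) and Pik3r1 without bleomycin replicate 1 (0.0494, with 0.0494 to 0.882).

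On the inhibitory side, 1 of 8 phosphatases and negative regulators rose and 0 fell, close to the 13.7% of all tested genes that were called, with a median log2 fold change of 0.11. Dok2, an adaptor that restrains tyrosine kinase signals, went from 1799 ± 45 to 2301 ± 35.6 (log2 0.36 ± 0.10, limma adjusted p = 0.0476). Dok2 did not pass in 11 of 16 other settings, among them each of the 6 with a library left out (adjusted p = 0.013 to 0.71 over all). Ptpn6, which encodes SHP-1, was 14643 ± 1598 and 11538 ± 384 (log2 -0.34 ± 0.12, adjusted p = 0.102), and Csk, the kinase that switches off Src kinases, had log2 -0.33 ± 0.10 (adjusted p = 0.0647). Inppl1, the phosphatase SHIP2, had log2 0.54 ± 0.21 (adjusted p = 0.151). By edgeR 0 of the 8 passed and by DESeq2 2 did. Without saline replicate 1 Ptpn6 passed as lower (0.0499), and without bleomycin replicate 1 Csk (0.042) passed as lower and Inppl1 (0.0124) as higher.

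Of 8 genes for receptors reported to act with CD300 proteins, and their adaptors, 2 rose and 0 fell (median log2 0.16). Of all genes tested 9.76% rose and 3.9% fell, and a list of 8 is too short to be told from those shares. Cd14, the lipopolysaccharide coreceptor, went from 6811 ± 1652 to 13867 ± 2900.0, 2.04-fold higher (adjusted p = 0.0131), and did not pass without bleomycin replicate 2 (0.0539) or 5 (0.0579). Tlr9, a receptor for DNA, went from 15.7 ± 6.93 to 108 ± 71.3 (adjusted p = 0.0444) with log2 2.44 (3.24 without bleomycin replicate 1), and did not pass in 7 of 15 other settings, among them each of the 5 that left out a library other than bleomycin replicate 1. Tlr9 was below 10 in saline replicate 2 and passed the filter only with bleomycin libraries, so its call is not independent of the filter. Tlr4 itself had 2212 ± 525 and 2249.5 ± 412 (log2 0.04 ± 0.20). Il4ra, the interleukin 4 receptor chain with which CD300f is reported to associate, had 5718 ± 899.8 and 7823 ± 881 (log2 0.46 ± 0.15, adjusted p = 0.0815). It passed by DESeq2 (0.0451) and without bleomycin replicate 1 (0.0407). Myd88 had log2 -0.30 ± 0.13 (adjusted p = 0.173). Lcp2, Ptpn6, Inppl1, Il4ra, Myd88 and, among the receptors that follow, Pilra share exon bases with other annotated genes, so their counts are less certain.

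Other receptors of similar build moved in both directions. Of 24 paired immunoglobulin-like, lectin-like and Fc receptor genes tested, 7 rose and 3 fell (median log2 0.21), against 9.76% and 3.9% of all genes tested. Trem2, a lipid receptor that signals through DAP12, had the smallest p, with log2 3.01 ± 0.21. Treml1, 1 of the 7, was 5.58-fold higher, at 5.9 ± 0.608 and 37.9 ± 8.25. It passed the filter on low values only through the bleomycin libraries, so its call is not independent of the filter and nothing is read from it. Its log2 fold change was 2.48, and 1.80 with quantile normalization. Clec12a, an inhibitory lectin, rose 2.14-fold from 2380 ± 638 to 4970.4 ± 303 (adjusted p = 0.00508), and Fcgr1, the high-affinity immunoglobulin G receptor, 1.73-fold (adjusted p = 0.00509). Treml2, Cd200r4 and Fcgr3 also rose. The 3 that fell were Treml4, from 2800.0 ± 1451 to 618 ± 102 (4.14-fold), Pilra, 1.64-fold, and Lilra5, 1.46-fold. Without bleomycin replicate 2 there were 4 rises, and without bleomycin replicate 5 there were 4 rises and 1 fall. The number that fell was 5 without saline replicate 1, with quantile normalization or by DESeq2.

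Phosphatidylserine receptors outside the CD300 family, and the proteins that bridge them to dying cells, were higher for most of the genes tested. Of 16 genes 13 could be tested, and 9 rose and 0 fell (median log2 2.32), against 9.76% and 3.9% of all genes tested. Of the 13, 2 had no saline library at 10, and Gas6 and Timd4 were below 10 in saline replicate 2. All of these passed the filter only with bleomycin libraries, so their calls are not independent of it. The 4 not called were abundant in saline. Axl had 43810 ± 4924 there and 40880 ± 3639 after bleomycin, and Mertk 13416 ± 2308 and 16564 ± 2534. Havcr2 had 6104 ± 1064 and 6815 ± 683, and Pros1 7971 ± 1071 and 8064 ± 671. Havcr1, a receptor for phosphatidylserine also called KIM-1, was at 0 in every saline library and at least 12.8-fold higher after bleomycin against a floor of 3 reads over that group. Its fitted log2 fold change of 3.83 and this bound both lie above the list median, so the bound could not move that median. Mfge8, a bridging protein, rose 26.8-fold from 502 ± 99.4 to 13495 ± 2749.8 (limma adjusted p = 7.14e-06), and Gas6, another bridge, 24.6-fold from 9.19 ± 6.16 to 214 ± 72.1 (adjusted p = 0.00147). The log2 fold change of Gas6 was 4.62, and 3.92 without saline replicate 2 or 4.01 with a pseudocount of 5. Stab1, the receptor stabilin 1, rose 21.8-fold from 27 ± 8.99 to 670.5 ± 357 (adjusted p = 0.000693), and Itgb5, an integrin chain, 2.12-fold (adjusted p = 0.00066). Gas6 and Stab1 share exon bases with other annotated genes. Without bleomycin replicate 2 or 5 there were 6 rises. Ager is also in the epithelial marker list, and the 10 epithelial markers summed to 5903 to 7055 in saline and 4852 to 5130 after bleomycin. The most abundant, Epcam, fell (log2 -1.66, limma adjusted p = 0.00135), and without it the sums were 1920 to 2495 and 3158 to 3969, so the groups lie the other way round. Their part in the result was not tested.

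**Figure D5:**
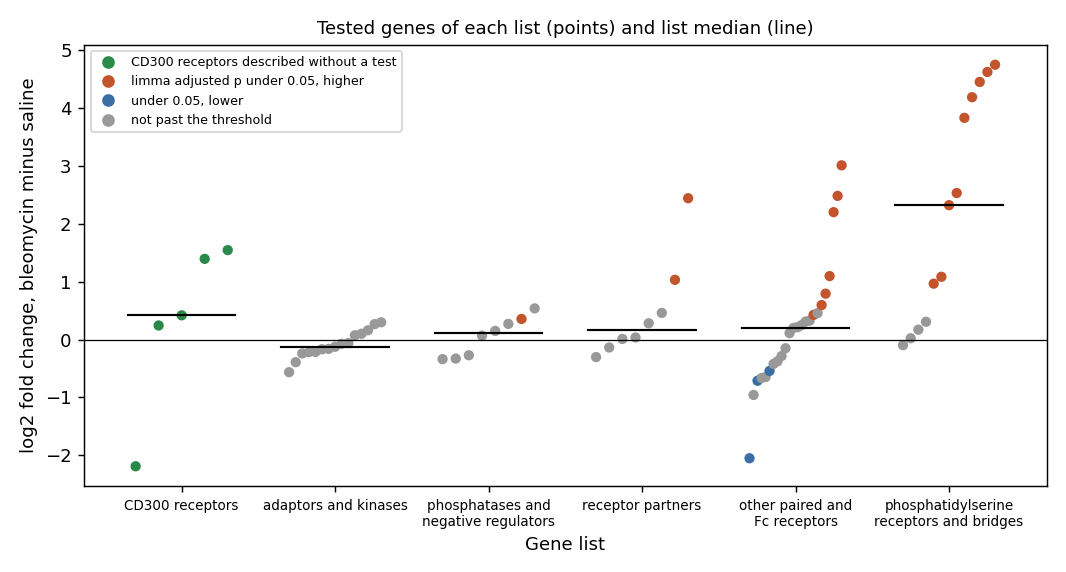
Log2 fold change (bleomycin minus saline) of every tested gene, by list, with a line at the list median; red and blue points passed limma's threshold as higher or lower, grey points did not, and green points are the 5 receptors. The points for adaptors and kinases are all grey, at 0.30 or lower, whereas phosphatidylserine receptors and bridges reach 4.74.

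For each receptor the 3 most similar profiles over the 6 libraries were found among 11847 tested genes with a regular symbol, by the root mean square difference of mean-centred log2(value + 1). Closest to Cd300a were Anxa3, an annexin (0.07 log2 units), Rgs10, a regulator of G protein signals (0.11), and Gpnmb, a lysosomal glycoprotein of lipid-laden macrophages (0.13). Closest to Cd300lb were Sigirr, an inhibitor of interleukin 1 and Toll-like receptor signals (0.06), Lrrc25 (0.11) and the class I gene H2-Q5 (0.13). Cd300lf was closest to Pgghg (0.04), Fam160a2 (0.06) and the lysosomal mannosidase Manba (0.06), and Cd300ld to Nnat (0.10), Fgd3 (0.11) and Tspoap1 (0.14). Cd300e had looser matches, among them Amer2 (0.27) and the carboxylesterase Ces2c (0.29). Within the family Cd300a and Cd300lb were the nearest pair (0.24), with Cd300a the 43rd closest of 13511 genes to Cd300lb, and Cd300a and Cd300e were the farthest apart (1.87).

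Markers of other cells that can carry CD300 receptors were read in the same libraries, and their part in the results was not tested. All 16 genes listed here as markers of resident alveolar macrophages were detected in every library. Of these 10 fell and 1 (Spp1) rose, against 3.9% and 9.76% of all genes tested. Summed over the list, they were 798938 to 959410.0 in saline and 857597 to 951138 after bleomycin, with Spp1 at 22307 to 53577 and 307057 to 390122. Without Spp1 the other 15 summed to 776631 to 905833 and 467475 to 644082, bleomycin below with no overlap. Without the most abundant, Chil3, which fell, the sums with Spp1 were 453269 to 539625 and 645310.1 to 686972, bleomycin above. Cd300lb and Cd300ld were lowest among bleomycin libraries in replicate 1. So were the summed monocyte, neutrophil, dendritic cell, mast cell and B cell markers, so this was not particular to 1 cell type. The resident macrophage, eosinophil and T and natural killer cell sums were highest there, and the epithelial sum was in between. The eosinophil sum was nearly all Siglecf, which is also a resident macrophage marker. Without Siglecf it was lowest in bleomycin replicate 1 (0.898, 3.30 and 2.59 in bleomycin). Without Epcam the epithelial sum was also lowest there (3158, 3698 and 3969). The 12 monocyte markers summed to 59457 to 89968 in saline and 85593, 144689 and 174812 after bleomycin. Fn1 was the most abundant of them, and without it the sums were 26863 to 32643 in saline and 23476, 31085 and 32899 after bleomycin. Treml4 was the 1 monocyte marker of 12 that fell, while 5 rose, against 3.9% and 9.76% of all genes tested. Of the 5, Ly6c2, F13a1 and Cx3cr1 were below 10 in saline replicate 3. They passed the filter only with bleomycin libraries, so their calls are not independent of it. The 10 of 12 neutrophil markers in the table summed to 2569 to 4020 in saline and 5701 to 6644 after bleomycin. Of the 7 tested 3 rose, against 9.76% of all genes tested. Without the most abundant, Mmp8, the sums were 1481 to 3021 and 2957 to 3261 and overlapped. Of the 12 listed, Camp was at 0 in every saline library, Stfa2l1 was at 0 in every bleomycin library, and S100a9 was 503 in saline replicate 2 against at most 56 in the others. Mast cell and basophil markers were at or near 0 apart from Kit, with a sum of 1.06 to 16.3 without it over all libraries, and Tpsb2 and Tpsab1 were at 0 in every bleomycin library. Kit itself rose, but it was below 10 in saline replicate 3, so its call is not independent of the filter. Of the 10 listed, 5 are in the table. The same held for eosinophils, with 4 of 6 markers in the table, where the sum without Siglecf was 0 to 8.83. Dendritic cell markers summed to 1802 to 2370.2 in saline and 4040 to 5274 after bleomycin, and Siglech was at 0 in every saline library. The 11 of 12 T and natural killer cell markers in the table summed to 12850 to 15604 in saline and 10931, 7982 and 7762 after bleomycin, nearly all of it Cd2, which fell (log2 -0.74, limma adjusted p = 0.0229). Without Cd2 the sums were 29.3 to 45.6 in saline and 221, 588 and 719.7 after bleomycin, so bleomycin replicate 1 was the highest of its group with Cd2 and the lowest without it. The 8 B cell markers summed to 4517 to 5213 and 5245 to 7010.0, and without Cd22 to 16.3 to 20.6 and 99.7 to 1348, with bleomycin replicate 1 the lowest of its group in both.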

How the data were processed

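The submitters' processing notes name STAR 2.5.2b, HTSeq 0.6.0, bcl2fastq 2.18.0.12, DESeq2 and build mm10. The task of each tool, the annotation, the strand setting and the filters were not given in the sources used here. A single table of a normalized signal was deposited by the authors. In every library 100% of values above 0 came out as whole reads (within 0.05 of a read), so it holds gene counts over a size factor, and 3 reads are worth 2.59 to 3.3. Symbols were found for 22873 of 22962 identifiers, and positions and exon lengths came from GENCODE M21 (GRCm38, the assembly that mm10 names).

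Genes at 10 or more in at least 3 libraries (13512) were tested on log2(value + 1) by limma 3.58.1 (R 4.3.3), with an intensity trend, two-sided, with Benjamini-Hochberg adjustment. This scale understates changes of low genes. P-values measure the spread between these libraries, part of which may be technical. The fit was tested on simulated data. Recovered reads were also tested with edgeR 4.0.16 (1821 genes called) and DESeq2 1.42.0 (2313). Other settings were pseudocounts, filters, scalings, no trend, a replicate block and leaving out each library with the tested genes held.

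Members and lists were chosen with earlier results of these data known. Named were the receptors, other CD300 genes, called genes near the cluster, the 4 genes of each list with the smallest p and the 3 nearest profiles. A few genes under this rule are not reported here. Tyrobp, Fcer1g, Tlr4, Treml4, Pilra and Lilra5 were named after their values were seen, as were Havcr1, Timd4, Treml2, Cd200r4, Fcgr3 and Ager. So were Axl, Mertk, Havcr2, Pros1 and the markers of other cells. Lists were described by counts and medians, without set tests.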

Additional observations from a re-analysis of the deposited data

How the results depend on the processing

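The log2 fold changes of the 5 receptors kept their sign in all 16 other settings and moved by less than 1 residual SD. Outside the settings that leave out a library they were 1.51 to 1.65 for Cd300a, 0.13 to 0.28 for Cd300lf, 1.35 to 1.43 for Cd300lb, 0.41 to 0.49 for Cd300ld and -2.40 to -2.0 for Cd300e. The number of called genes was 1846 (1319 higher, 527 lower), and with each library left out it was 951 to 2081 (768 to 1457 higher, 183 to 624 lower). The lowest total came without bleomycin replicate 5, and without bleomycin replicate 2 there were 999 calls; 327 and 322 were lower without saline replicates 2 and 3. Over the 5 signalling and receptor lists together 19 genes were called higher and 3 lower, or 10 to 22 and 1 to 7 with each library left out (10 higher without bleomycin replicate 2 or 5, 7 lower without saline replicate 1), and 5 lower with quantile normalization and 6 by DESeq2. The cause was not tested. Samples that share a replicate number did not pair: the deviations from the group means correlated at -0.201 for number 1 and 0.0237 for number 2. With the replicate number as a block, where only numbers 1 and 2 inform the difference, 1147 genes were called (194 lower), with 1 lower in the lists, and Cd300lf had 0.13. With levels per kb of the longest transcript, an alternative chosen after the data were seen, Cd300a made up 14.8% of the sum after bleomycin and Cd300e 5.65% in saline, because the 2 lengths differ between genes. Among the CD300 genes, Cd300ld3 and Cd300c have the fewest reads, and Cd300e after bleomycin rests on 89 to 102 reads a library.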
